A study of Mus musculus with 6 samples.

Results

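The retinoid receptors and binding proteins were followed through 9 genes: the retinoic acid receptors Rara, Rarb and Rarg, the retinoid X receptors Rxra, Rxrb and Rxrg, the cellular retinoic acid binding proteins Crabp1 and Crabp2, and the retinol uptake receptor Stra6. They were chosen by name, with earlier results of these data known, so counts among them set beside all genes are a description. Every probe set that the platform annotation pairs with exactly 1 of these symbols was taken, which gave 12 of the 45101 probe sets on the array, and 9 of the 18193 genes measured by a singly annotated probe set. Rarg had 2 probe sets, Rxra had 3 and each of the other 7 genes had 1. No member was removed for a low value.

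RNA came from 3 samples of Pax2 null cells (EGFP/EGFP in the sample titles) and 3 samples of Pax2 heterozygote cells (EGFP/+), all taken from mouse embryos at E11.5. Both groups carry EGFP, on both alleles in the nulls and on 1 allele in the heterozygotes, and no wild-type sample was included. The cells were those that fluoresced when suspensions of the intermediate mesoderm region, the embryonic source of the kidneys and gonads, were sorted. The number of embryos behind a sample is not given, nor is it stated that the samples came from separate litters, so the p-values describe how far these samples differ from each other, for which part of the reason may be technical.

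Vitamin A circulates as retinol, enters cells through STRA6 and is oxidized in steps to retinoic acid. Retinoic acid is carried in the cytoplasm by CRABP1 and CRABP2 and acts in the nucleus on heterodimers of a retinoic acid receptor with a retinoid X receptor, which sit on direct repeats of a short motif in the DNA of target genes. In the mouse embryonic kidney, Rara and Rarb together maintain Ret expression in the ureteric bud.

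Values are log2 intensities from robust multi-array averaging (RMA), a method that equalizes the distribution of values between arrays, so levels are relative to the other probe sets of an array. Array medians lay between 6.12 and 6.24. Null 1 was low in Xist (4.02, against 8.84 or more on the other arrays) and heterozygote 2 in the Y-linked Eif2s3y (3.92, against 7.90 or more), while the other 4 arrays were high in both. The labels were not checked against Pax2, which is not analysed here. For the tissue, 10 of 11 nephric duct markers and 10 of 10 metanephric mesenchyme markers lay above 4.81, the 33rd percentile of probe set means, in nulls, and 11 of 11 and 10 of 10 did in heterozygotes. So did 73.6% of all genes in nulls and 73.5% in heterozygotes, and 8 of 8 gonad markers in both, so these counts do not tell which of these tissues was taken.

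Among the members, Crabp1 and Rarg were higher in null cells (limma, Benjamini-Hochberg adjusted p under 0.05 over all 18193 genes), by 3.57-fold and 2.01-fold, and no member was lower, 0 of 9 also at an unadjusted p under 0.05. Over all genes 1.39% were called in either direction and 0.808% were called higher. The change, null minus heterozygote, was positive in 8 of 9 members, against 46.4% of all genes, with a median of 0.55 on the log2 scale against -0.02 over all genes. In 4 members, Rarg, Rxra, Crabp1 and Crabp2, every null array lay above every heterozygote array, as 6.49% of all genes did. In a mixture of sorted cells, a difference in how many cells of a type were present cannot be told apart from a difference in RNA per cell.

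**Figure D1:**
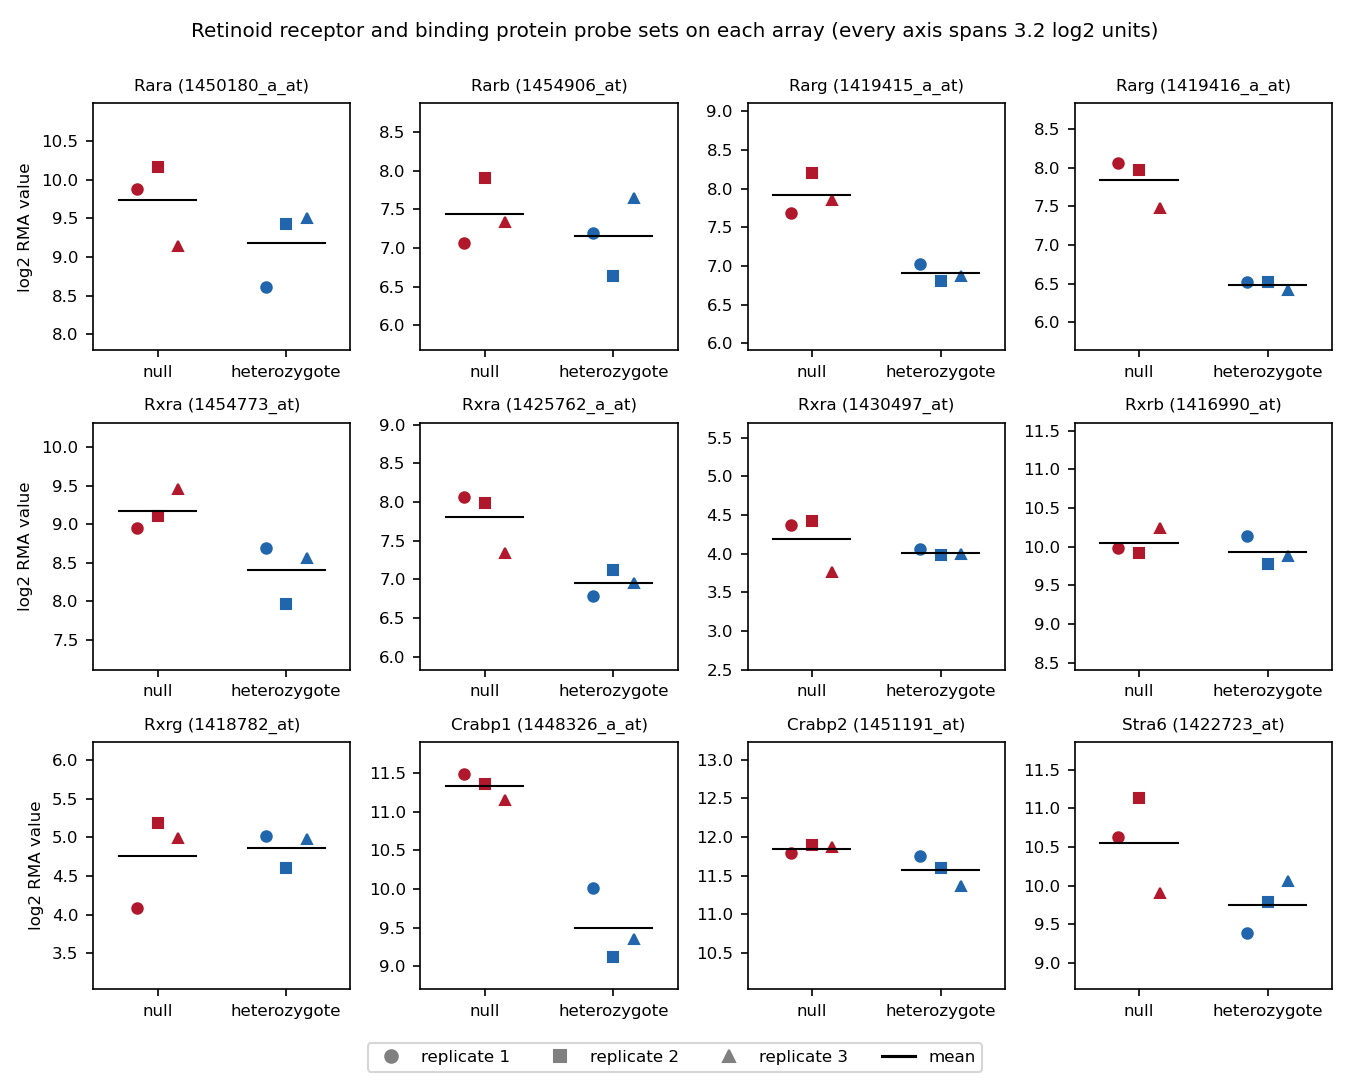
Log2 RMA value of each of the 12 probe sets on each array, null at left and heterozygote at right, with the group mean as a line; every vertical axis spans the same number of log2 units. The null and heterozygote points of Crabp1 and of both Rarg probe sets lie apart, while those of Rara, Rarb, Rxrb, Rxrg and Stra6 overlap.

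Crabp1 encodes a cytoplasmic protein that binds retinoic acid and can pass it to the enzymes that break it down. Its log2 values were 11.48, 11.36 and 11.15 on the null arrays, against 10.01, 9.12 and 9.35 on the heterozygote arrays. The lowest null array stood 1.13 above the highest heterozygote array, which was heterozygote 1. The means were 11.33 ± 0.17 in nulls and 9.49 ± 0.46 in heterozygotes (log2, SD, n = 3 each), a change of 1.84 ± 0.24 (SE; limma, adjusted p = 0.0150). In the fit over all 45037 probe sets other than array controls it also passed (limma, adjusted p = 0.0268). With 1 array left out the change stayed between 1.65 and 2.10, but limma's adjusted p was 0.0634 without null 1, 0.0608 without null 2, 0.0515 without heterozygote 2 and 0.0739 without heterozygote 3.

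The promoters of the genes that rose, and that of Rarb, are shown because retinoic acid receptors can act on genes of their own pathway. Each RefSeq window (build GRCm38.p6) runs from 250 bases before to 50 bases after an annotated start, 5′ to 3′ on the strand of the gene. Windows were found for 8 of the 9 members, 18 in all. They were searched on both strands for the receptor motif (AGGTCA as well as AGTTCA, and likewise GGGTCA as well as GGTTCA), for 2 copies of it in direct repeat, and for the GC box GGGCGG, which binds general promoter factors. The receptor motif occurred in 8 of the 18 member windows and in 43.7% of all 32851 promoter windows, and the GC box in 11 of 18 and in 35.7%. The GC content of member windows ran from 51.7% to 83.0%, against a median of 52.7% over all windows. The first 2 Rara windows overlap and hold the same 4 GC boxes, so these sites are counted in both. The 2 motifs share no position in the windows shown. The Crabp1 window at chr9:54764498-54764797 (plus strand) held 5 GC boxes on either strand, in capitals, and no receptor motif.
Crabp1: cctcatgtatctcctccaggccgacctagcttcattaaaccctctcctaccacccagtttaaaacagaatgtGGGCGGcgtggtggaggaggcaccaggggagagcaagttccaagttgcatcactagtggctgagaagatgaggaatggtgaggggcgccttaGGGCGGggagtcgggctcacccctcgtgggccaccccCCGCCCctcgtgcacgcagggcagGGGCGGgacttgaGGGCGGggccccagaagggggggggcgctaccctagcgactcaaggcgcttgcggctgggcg

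Rarg encodes the receptor that, in the mouse embryo, is prominent in mesenchyme, cartilage precursors and skin. The brighter of its 2 probe sets, which stands for the gene, read 7.68, 8.21 and 7.86 in nulls, against 7.03, 6.81 and 6.87 in heterozygotes. All 3 null arrays were above all 3 heterozygote arrays. The mean was 7.91 ± 0.27 in nulls and 6.90 ± 0.11 in heterozygotes (log2, SD, n = 3 each), a change of 1.01 ± 0.18 (SE; limma, adjusted p = 0.0418).

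The dimmer Rarg probe set read 8.06, 7.97 and 7.48 in nulls, against 6.52, 6.52 and 6.41 in heterozygotes. It too separated the genotypes, with a change of 1.35 ± 0.19. In the fit over single probe sets it passed (limma, adjusted p = 0.0292), whereas the first did not (limma, adjusted p = 0.0708). The suffix of both names marks probes shared by several transcripts of the gene, so the isoforms were not measured apart. The gene-level call was lost in each of the 6 fits with 1 array left out (limma, adjusted p = 0.0722 without null 1, 0.126 without null 2, 0.0924 without null 3, 0.0522 without heterozygote 1, 0.165 without heterozygote 2 and 0.161 without heterozygote 3), while the change stayed between 0.86 and 1.13. It was also lost with each array centred on its median (limma, adjusted p = 0.0733) and with a prior that follows intensity (limma, adjusted p = 0.0746). The Rarg window at the upstream of its 2 starts, chr15:102257473-102257772 (minus strand), held 1 receptor motif, in capitals and reading on the opposite strand as the reverse complement, and 3 GC boxes.
Rarg: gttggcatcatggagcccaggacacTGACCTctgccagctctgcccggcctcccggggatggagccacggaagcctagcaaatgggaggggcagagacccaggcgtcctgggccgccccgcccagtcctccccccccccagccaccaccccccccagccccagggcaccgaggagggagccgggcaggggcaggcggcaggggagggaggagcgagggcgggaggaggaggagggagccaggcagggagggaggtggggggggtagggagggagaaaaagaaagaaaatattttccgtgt

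Rara encodes the receptor that is expressed most widely in the embryo. Its log2 values were 9.89, 10.17 and 9.15 in nulls, against 8.62, 9.43 and 9.51 in heterozygotes. The groups overlapped because null 3 lay below heterozygotes 2 and 3. The change was 0.55 ± 0.33 (SE; limma, adjusted p = 0.752).

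Rarb is itself a target of retinoic acid in many cells. It read 7.07, 7.91 and 7.33 in nulls, against 7.19, 6.64 and 7.64 in heterozygotes, with null 1 below heterozygotes 1 and 3. The change of 0.28 ± 0.30 (SE) did not pass (limma, adjusted p = 0.959). Its window at chr14:16575427-16575726 (minus strand) held 3 receptor motifs, in capitals.
Rarb: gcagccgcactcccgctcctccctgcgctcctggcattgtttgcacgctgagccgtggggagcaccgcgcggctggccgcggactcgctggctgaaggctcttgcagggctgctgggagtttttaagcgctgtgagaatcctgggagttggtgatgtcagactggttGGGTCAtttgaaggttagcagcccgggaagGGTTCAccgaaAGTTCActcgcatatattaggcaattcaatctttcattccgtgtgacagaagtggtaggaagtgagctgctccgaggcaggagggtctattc

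Those at bases 198 and 209 formed the direct repeat with a spacer of 5 bases that is known as the retinoic acid response element of this promoter and that ends at base 214 of the window. That arrangement was found in 1 of the 18 member windows and in 0.0974% of all promoter windows. Direct repeats with spacers of 1 and 2 bases, the other arrangements these receptors are known to use, were found in 0 of the 18 member windows, and in 0.222% and 0.268% of all windows. A match of letters is a description and not a measure of binding.

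The retinoid X receptors are the shared partners, which also pair with receptors for thyroid hormone, vitamin D and lipids. Rxra read 8.95, 9.10 and 9.46 in nulls, against 8.70, 7.97 and 8.56 in heterozygotes, on the brightest of its 3 probe sets. The groups did not overlap, and the change of 0.76 ± 0.24 (SE) did not pass (limma, adjusted p = 0.250). The next Rxra probe set read 8.07, 7.99 and 7.35 in nulls, against 6.79, 7.12 and 6.96 in heterozygotes.

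That probe set also kept the genotypes apart, with a change of 0.85 ± 0.23 (SE; limma over all probe sets, adjusted p = 0.244). The dimmest of the 3 had means of 4.19 ± 0.37 in nulls and 4.01 ± 0.04 in heterozygotes (log2, SD, n = 3 each), under the 33rd percentile of 4.81, where differences between dim probe sets are compressed. Rxrb read 9.98, 9.92 and 10.24 in nulls, against 10.13, 9.78 and 9.88 in heterozygotes, groups that overlapped, with a change of 0.12 ± 0.17 (SE; limma, adjusted p = 0.979). Rxrg, a form known from muscle and the nervous system, read 4.09, 5.18 and 4.99 in nulls, against 5.02, 4.61 and 4.98 in heterozygotes. Null 1 was its lowest array, both group means were near the 33rd percentile, and the change of -0.11 ± 0.29 (SE; limma, adjusted p = 0.992) was 0.22 without null 1.

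**Figure D2:**
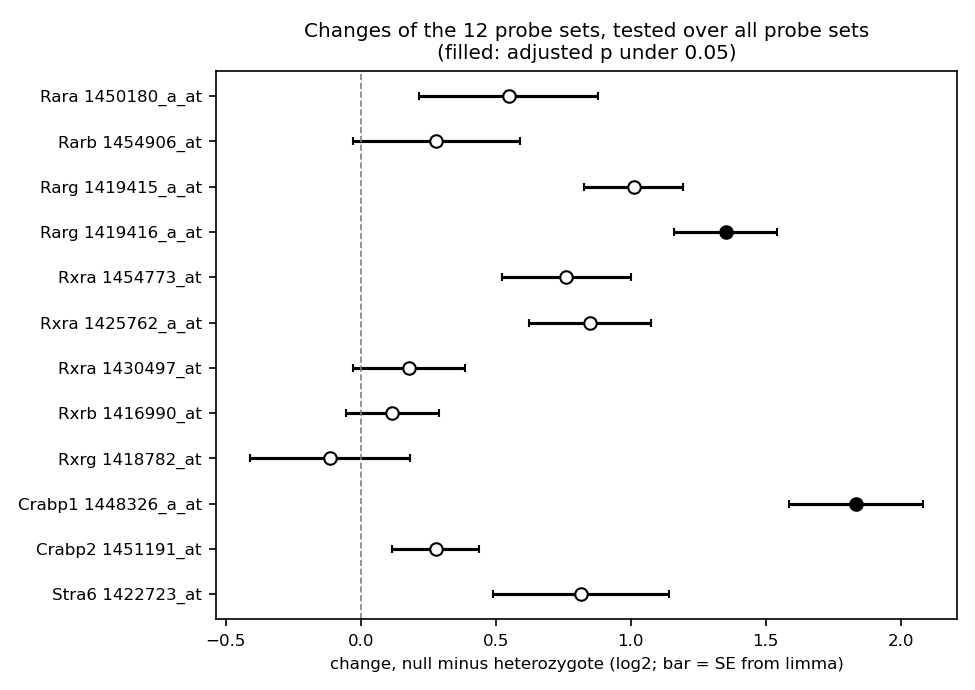
Change of each probe set on the log2 scale (null minus heterozygote) with its SE from the limma fit over all probe sets; filled points passed an adjusted p of 0.05. Crabp1 and 1 Rarg probe set are filled, and 11 of the 12 changes lie above 0.

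Crabp2 encodes the binding protein that delivers retinoic acid to its receptors in the nucleus. It read 11.79, 11.89 and 11.87 in nulls, against 11.76, 11.60 and 11.37 in heterozygotes. The groups were separated by 0.04 on the log2 scale, and the change of 0.28 ± 0.16 (SE) did not pass (limma, adjusted p = 0.731). Stra6, the membrane receptor for retinol bound to its plasma carrier, read 10.63, 11.14 and 9.91 in nulls, against 9.38, 9.79 and 10.06 in heterozygotes. Null 3 lay below heterozygote 3, and the change of 0.81 ± 0.32 (SE) did not pass (limma, adjusted p = 0.436).

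Over the single probe sets, 2 of 12 were called higher, where 0.391% of all probe sets were, and in 6 of 12 the null arrays all lay above the heterozygote arrays, as in 5.56% of all probe sets. The difference between 2 genes on the same array was also compared between genotypes for 4 pairs of relatives chosen after their values were seen. Crabp1 minus Crabp2 was -0.31, -0.53 and -0.72 in nulls, against -1.74, -2.48 and -2.02 in heterozygotes (log2). These did not overlap, and the means differed by 1.56. The genotypes also did not overlap in Rarg minus Rarb (shift 0.73) and in Rxra minus Rxrb (0.64), and overlapped in Rarg minus Rara (0.46). These shifts are a description, with no test.

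The arrays also fell into 3 pairs by their hybridization controls, bacterial transcripts added to each sample, with 1 null and 1 heterozygote array in each. Pair 1 was null 3 and heterozygote 1, pair 2 null 1 and heterozygote 2, and pair 3 null 2 and heterozygote 3. This pairing is not in the labels. Pair 2 joined the array low in Xist (null 1) to the array low in Eif2s3y (heterozygote 2). Within that pair, genotype cannot be told apart from this contrast. Stra6 differed by 0.52, 0.84 and 1.08 within pairs 1, 2 and 3 (log2, null minus heterozygote). Rara differed by 0.53, 0.46 and 0.66 and Rxra by 0.76, 0.98 and 0.54. On the probe set that stands for it, each of these 3 genes was thus higher in the null array of every pair. The null and heterozygote arrays of Rara and Stra6 nevertheless overlapped when the pairs were ignored. The dimmest Rxra probe set differed by -0.29, 0.39 and 0.44.

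Crabp1 differed by 1.13, 2.36 and 2.02 within the pairs, and Rarg by 0.83, 0.87 and 1.33. In all, 8 of 9 members were higher in the null array of all 3 pairs, as 19.1% of all genes were, the exception being Rxrg. With the pair as a block in limma, 4 of 9 members were called higher, where 2.67% of all genes were. These were Crabp1 (adjusted p = 0.0194), Rarg (adjusted p = 0.0221), Rxra (adjusted p = 0.0369) and Stra6 (adjusted p = 0.0401), and Rara did not pass (limma, adjusted p = 0.0552). In the blocked fit over all probe sets, Crabp1 and both Rarg probe sets passed (limma, adjusted p = 0.042, 0.049 and 0.030). Stra6 did not pass there (limma, adjusted p = 0.081), nor did any Rxra probe set (limma, adjusted p = 0.0763, 0.0668 and 0.718). The block leaves 2 residual degrees of freedom per gene.

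**Figure D3:**
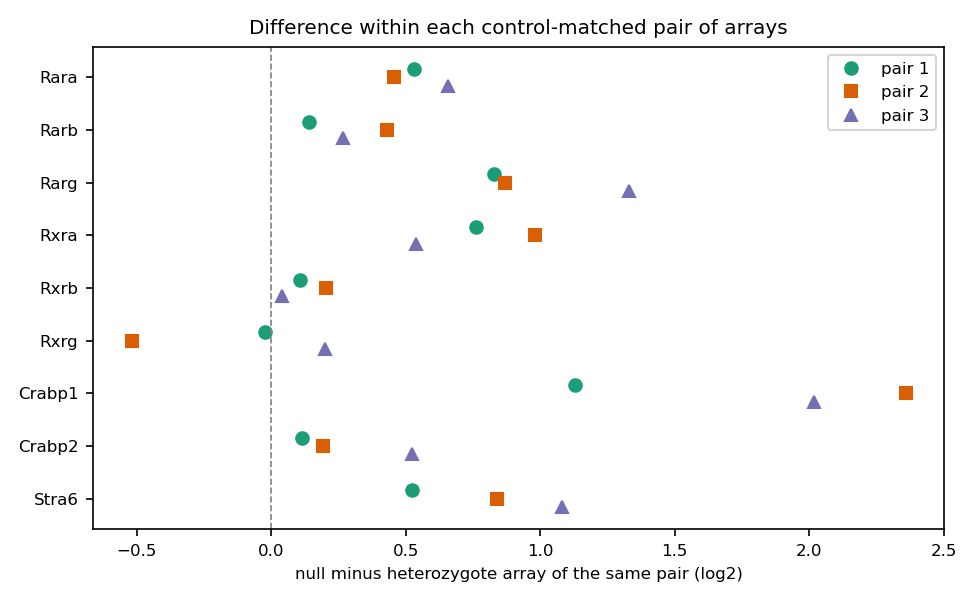
Difference in log2 value between the null and the heterozygote array of each control-matched pair, for the probe set that stands for each member. All 3 points lie above 0 for 8 of the 9 genes, and Rxrg has points on both sides.

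The other genes of the retinoic acid pathway had smaller median changes, list by list, than the receptors or the binding and uptake genes. Of the 10 measured enzymes that make retinoic acid from retinol or break it down, 1 rose and 0 fell, with a median change of 0.20, and in 7 the genotypes did not overlap, as in 13.6% of all genes. Adh1, an alcohol dehydrogenase that can oxidize retinol, averaged 11.06 ± 0.15 in nulls and 9.63 ± 0.46 in heterozygotes (log2, SD, n = 3 each), a change of 1.43 ± 0.24 (SE; limma, adjusted p = 0.0318). Aldh1a3, which makes retinoic acid, differed by -1.47 ± 0.29 (SE; limma, adjusted p = 0.0605). Dhrs3, which turns retinaldehyde back to retinol, differed by 0.60 ± 0.15 (SE; limma, adjusted p = 0.130). The Adh1 call was lost without null 1, null 2, null 3, heterozygote 2 or heterozygote 3 (limma, adjusted p up to 0.125), its change staying between 1.23 and 1.68, and without array pair 2 or 3. In the fit over all probe sets Adh1 did not pass (limma, adjusted p = 0.0560), whereas 2 of the 3 Aldh1a3 probe sets fell, by 3.28 and 1.75 on the log2 scale (limma, adjusted p = 0.0166 and 0.0213), and the one that stands for the gene did not pass (limma, adjusted p = 0.100).

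None of the 10 measured genes for retinol carriers and retinol esterification passed in limma, with a median change of 0.02. Of these, 1 gene, Stra6l, had an unadjusted p under 0.05, and its levels were dim (3.23 ± 0.05 in nulls and 3.68 ± 0.28 in heterozygotes, log2, SD, n = 3 each). Of the 10 coregulators, 0 passed in limma and 0 had an unadjusted p under 0.05, with a median change of 0.04. Ncoa2, a coactivator, differed by 0.20 ± 0.25 (SE), the corepressor subunit gene Tbl1xr1 by -0.30 ± 0.16 and the Mediator subunit gene Med1 by -0.18 ± 0.16. The 10 other partners of the retinoid X receptors had a median change of 0.00, and the 5 orphan receptors of the COUP-TF and TR2/TR4 families one of -0.07. In each of these lists 0 passed in limma and 1 had an unadjusted p under 0.05. These were Thra, a thyroid hormone receptor, with a change of 0.76 ± 0.20 (SE; limma, adjusted p = 0.147), and Nr2f1 with 0.60 ± 0.15 (SE; limma, adjusted p = 0.126). Of 12 measured genes that retinoic acid induces in other settings, 0 passed in limma, 4 had an unadjusted p under 0.05 and the median change was 0.10. Tgm2, a transglutaminase, had a change of 1.40 ± 0.40 (SE; limma, adjusted p = 0.199) and Hoxb1 one of -0.72 ± 0.29 (SE; limma, adjusted p = 0.445).

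Over all these lists besides the members, 11 of 54 genes (20.4%) had an unadjusted p under 0.05 in limma, against 9.73% of all genes. After adjustment 1 passed. With the array pair as a block, 5 of the 54 passed, against 4.56% of all genes. They were Adh1, Dhrs3, Thra and Hoxa4, which rose, and Aldh1a3, which fell. Hoxa4 was named after its values were seen.

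**Figure D4:**
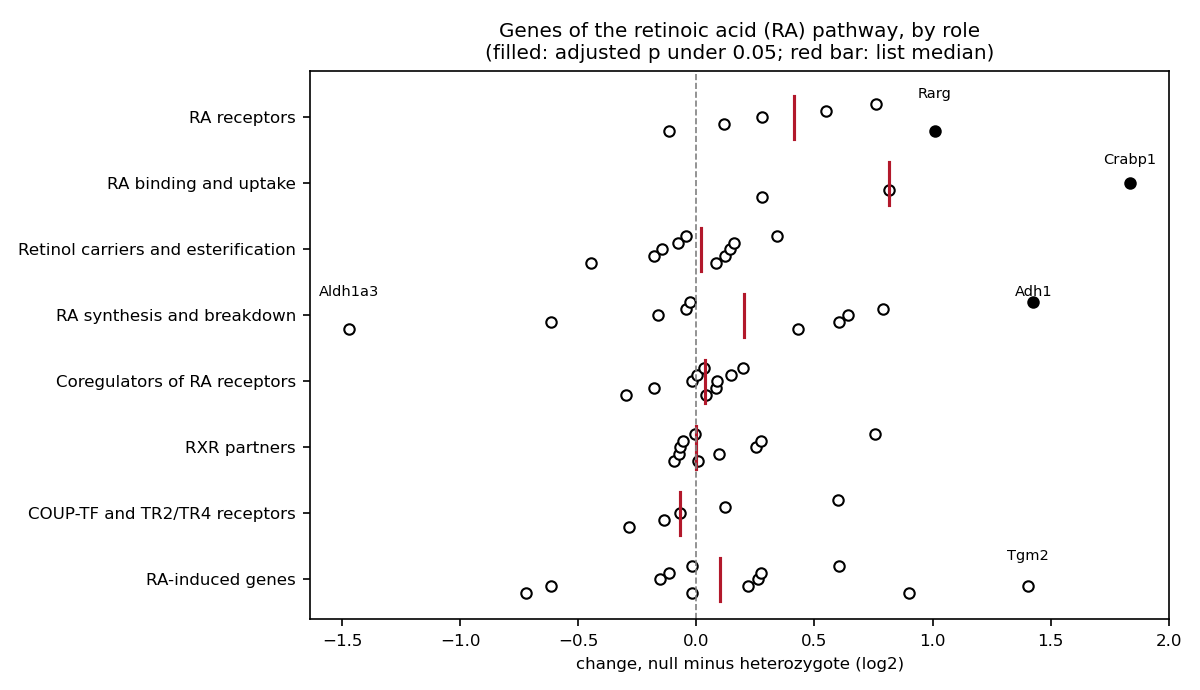
Change of each measured gene (log2, null minus heterozygote) in the lists of the retinoic acid pathway, by role, with the list median as a red bar; filled points passed. Crabp1, Rarg and Adh1 are filled, and the medians of the receptors (0.41) and of the binding and uptake genes (0.81) lie highest.

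The genes most like each member that rose were found by the root mean square difference between profiles over the 6 arrays, each gene taken minus its own mean. For Crabp1 these were Pdgfrb (0.147 log2 units), Pcdh10 (0.152), Cldn23 (0.160), Ptx3 (0.163) and Ecm1 (0.181). Pdgfrb, the nearest, encodes a growth factor receptor of perivascular and stromal cells and is one of the 12 stromal markers, and its change was 1.90 ± 0.18 (SE). For Rarg they were Gm15050 (0.0928), Kcnab1 (0.104), Sdk2 (0.105), Crispld2 (0.111) and Me1 (0.115). All 10 genes were higher on every null array than on any heterozygote array, which follows from their choice by likeness to genes whose groups lie apart. Among the members themselves, Rxrb and Crabp2 (0.161) and Rara and Stra6 (0.192) had the nearest profiles. The values were not scaled to a common spread, so genes that vary little lie near each other whatever their shape.

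**Figure D5:**
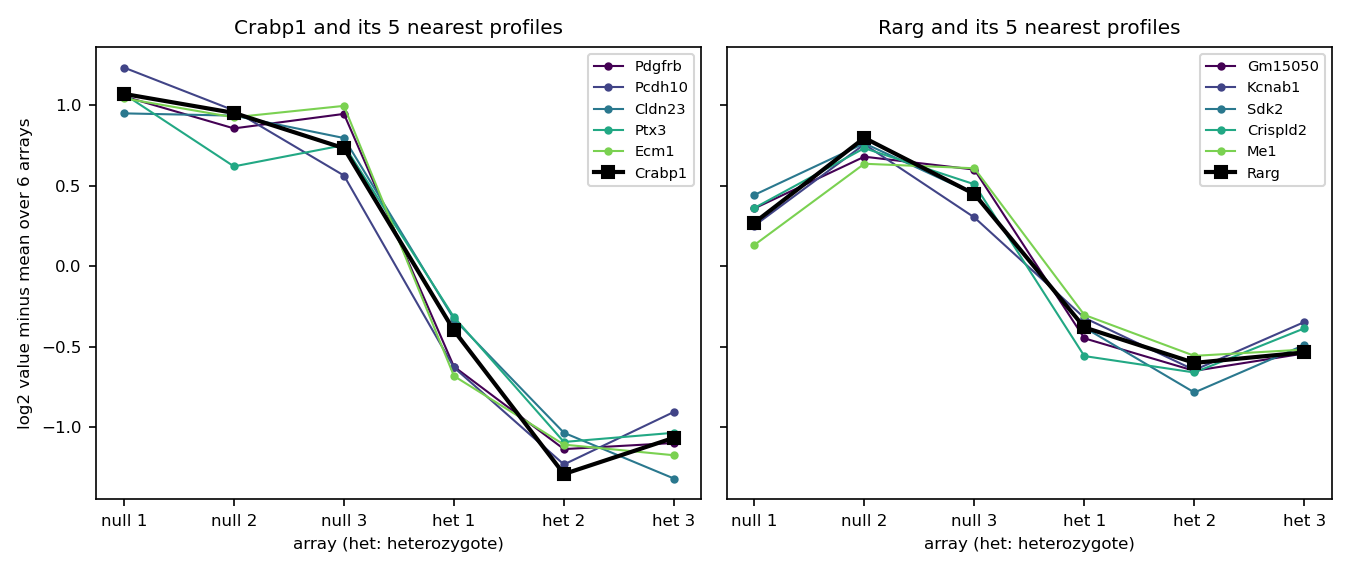
Log2 value minus the gene's mean over the 6 arrays for Crabp1 (left panel, black) and Rarg (right panel, black) and the 5 genes with the nearest profiles; lines join the values of a gene and carry no order among replicates. Null arrays lie above 0 and heterozygote arrays below 0 for every gene drawn.

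All 12 stromal markers had a positive change and 6 rose, with a median of 1.62, and their summed level (log2 of the sum of unlogged values) ranged from 13.80 to 14.02 in nulls and from 12.47 to 12.95 in heterozygotes. All 10 macrophage markers had a positive change, and 0 passed in limma where 7 had an unadjusted p under 0.05 (against 9.73% of all genes), with summed levels of 10.51 to 11.77 in nulls and 9.46 to 10.42 in heterozygotes. Nephric duct markers had a positive change in 1 of 11, and 4 fell, with summed levels of 12.65 to 12.99 in nulls and 13.29 to 13.74 in heterozygotes. Of 12 neural markers, 1 rose and 1 fell, and the summed levels overlapped (11.05 to 11.71 in nulls and 10.57 to 11.26 in heterozygotes). The summed levels of the 5 measured neural crest and glial markers ranged from 10.30 to 11.15 in nulls and from 11.17 to 11.53 in heterozygotes. Of these markers 0 passed in limma, at an unadjusted p under 0.05 too. Gonad markers had a positive change in 7 of 8, and 1 rose, with summed levels of 10.30 to 10.58 in nulls and 9.32 to 9.34 in heterozygotes. Metanephric mesenchyme markers had a negative change in 9 of 10, with a median of -0.745. Of them 3 fell and 1 rose, and their summed levels overlapped. Of 8 paraxial mesoderm markers 1 fell, with summed levels of 10.30 to 10.80 in nulls and 11.09 to 11.80 in heterozygotes. Of 7 endothelial markers 0 passed in limma, at an unadjusted p under 0.05 too, and their summed levels overlapped. RMA gives no value of 0. The part of these cell types in the changes of Crabp1, Rarg and the other members was not tested.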

How the data were processed

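The deposited values are log2 RMA values per probe set and array, from biotin-labelled cDNA amplified from 10 ng of total RNA per the labels' protocols. The submitters' processing notes name affy, RMA and limma, without versions; the settings used are not stated there. RMA corrects background and equalizes distributions between arrays, so a global change in RNA per cell is not visible. Of 45101 probe sets, 34958 had exactly 1 gene symbol, 932 had several and 9211 were not listed by the platform annotation. The 64 array controls are counted within these classes. The probe set with the highest mean stood for each of 18193 genes, with no filter on dim values.

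Nulls were set against heterozygotes in limma 3.58.1 (R 4.3.3), using lmFit, eBayes and two-sided tests without covariates. P-values were adjusted by Benjamini-Hochberg over all genes, or over 45037 probe sets. The fits were tested on simulated data whose noise was independent between genes and arrays, so that test does not cover the pairing of the arrays. Array pairs were found from 14 hybridization controls: of 15 possible matchings, the closest summed to a distance of 1.94 and the runner-up to 5.05, and after removal of genotype means paired arrays correlated at 0.377 or more across genes, against at most 0.0972 for unpaired arrays of opposite genotype. Within a genotype, arrays correlated between 0.976 and 0.991, and none was a copy of another. The number of arrays limits the precision. Members and lists were chosen with earlier results of these data known. All members were named, with list genes that passed, the smallest p-values of each list (up to 3 genes) and the 5 nearest profiles. Alternatives changed the probe set rule, the variance prior, a filter, the scaling, array weights, the pair block and the arrays used.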

Additional observations from a re-analysis of the deposited data

How the results depend on the processing

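Every member but Rxrg kept a positive change under all 17 alternatives run for it, and Crabp1 passed under 11 of them and Rarg under 6. The change of Rxrg ranged from -0.33 to 0.22 with an array left out, being positive without null 1, and was 0.088 without array pair 2. The number of members called was 1 with a prior that follows intensity and 1 with median centring, which lost Rarg each time (limma, adjusted p = 0.0746 and 0.0733), 4 with the array pair block, 0 to 1 with an array left out, 1 without array pair 1, and 0 without array pair 2 or 3. In the fits with 0, limma gave 3 or 4 members an unadjusted p under 0.05. The share of all genes under that p was not counted in such fits. This count, and those for probe sets and pathway genes below, thus have no background to be read against. The number of member probe sets called ranged from 0 to 2 with an array left out and was 0 without array pair 2 or 3, and in the fits with 0 from 4 to 6 had an unadjusted p under 0.05 in limma. Other pathway genes called numbered 2 with the intensity prior, with the filter and with the mean over probe sets, 4 with array weights, 5 with the pair block, 0 to 2 with an array left out and 0 without pair 2 or 3, and in the fits with 0 from 6 to 9 had an unadjusted p under 0.05 in limma. Over all genes 253 were called, against 553 with array weights, 830 with the pair block, 84 to 318 with an array left out, 1 without pair 2 and 2 without pair 3. Fits without an array or a pair have fewer samples, and the other causes were not tested. The pairing came from the controls, since the labels give no shared replicate numbers. Signals of Rxrg and of the third Rxra probe set lay near or under the 33rd percentile, which limits what they can show.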
